A study of Mus musculus with 10 samples.

Results

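The mitochondrial genome carries its own small set of genes, and their transcripts were followed here in mouse left ventricle under pressure overload, with and without osimertinib. All genes of the mitochondrial chromosome in the deposited table were taken, found by their Ensembl identifiers because the table lists them under symbols without the mt- prefix or under none. These were 37 genes of 45706, namely 13 protein-coding genes, each called a messenger RNA here, 2 ribosomal RNAs and 22 transfer RNAs. A further 7 pseudogenes on chromosome 1 that copy mitochondrial genes were read beside them, since reads are divided between gene and copy. The 10 libraries came from left ventricular tissue labelled as holding all heart cells, and all 10 samples are labelled TAC, the usual abbreviation for transverse aortic constriction, a surgical narrowing of the aorta. In 5 of them the mice were given placebo, which a second label calls vehicle, and in 5 osimertinib, a lung cancer drug that blocks the kinase of the EGF receptor. The sources used here give no dose, duration, age, sex or strain, and samples without TAC were not analysed here. Nothing in the labels states that each sample is its own animal, and the spread among samples may therefore be technical. To a degree that differed by scale, the p-values also draw on spread pooled over all genes tested.

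Mitochondrial DNA is transcribed from both strands as long precursors. Transfer RNAs punctuate these precursors and are cut out to release the messenger and ribosomal RNAs, most of which then receive a short poly(A) tail from the polymerase Mtpap. The messenger RNAs encode subunits of respiratory complexes I, III and IV and of ATP synthase (complex V), in which they are assembled with subunits made from nuclear genes. The heart, which runs on oxidative phosphorylation, is among the tissues richest in these transcripts. The libraries were selected for poly(A) tails, so a level here is that of tailed RNA.

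Sequence sets the limits of what can be measured for 7 of the messenger RNAs. On the minus strand of chromosome 1 (GRCm38, from 24611535 to 24616197) the GENCODE M21 annotation lists 7 unprocessed pseudogenes in the same order as the mitochondrial genes they copy, which are mt-Co1, mt-Co2, mt-Atp6, mt-Co3, mt-Nd3, mt-Nd4l and mt-Nd4. Over the aligned stretch, 5 of the 7 copies were identical to the gene. Gm28661 matched all but the last 3 bases of mt-Co2, 681 of 684, and the ends of the pair are shown first, with the stop codon that only the annotated mitochondrial transcript includes in capitals (chrM:7637-7696 on the plus strand and chr1:24614885-24614941 on the minus strand).
mt-Co2: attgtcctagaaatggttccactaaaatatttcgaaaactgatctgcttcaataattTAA
Gm28661: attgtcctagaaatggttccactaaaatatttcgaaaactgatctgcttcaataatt
Over the aligned stretch, which for Gm29216 was 483 of its 492 bases from base 10 on, the remaining 2 copies each held 1 substitution. It was T3C for mt-Nd3 and Gm28438 and A1066T for mt-Co1 and Gm29216, written as the mitochondrial base, its position counted from 1 at the 5′ end of the mitochondrial gene, and the base of the copy. Both pairs are shown around that base, which is in capitals (chrM:9459-9518 and chrM:6390-6449 on the plus strand, chr1:24613060-24613119 and chr1:24616129-24616188 on the minus strand).
mt-Nd3: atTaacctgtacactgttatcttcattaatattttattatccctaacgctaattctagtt
Gm28438: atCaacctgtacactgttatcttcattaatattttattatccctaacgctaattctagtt
mt-Co1: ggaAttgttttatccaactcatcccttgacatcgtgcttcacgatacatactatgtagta
Gm29216: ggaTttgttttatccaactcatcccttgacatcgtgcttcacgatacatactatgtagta
A read inside an identical stretch fits gene and copy equally well, so only the sum of the pair is a firm value.

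Neighbouring mitochondrial genes also overlap, and reads from the shared bases can be given to either. The 3 stretches that follow show the shared bases in capitals, on the plus strand of the mitochondrial chromosome (chrM:7907-7989, chrM:10147-10193 and chrM:13522-13565). mt-Atp8 and mt-Atp6 share 43 bases and mt-Nd4l and mt-Nd4 share 7, each pair on one strand. mt-Nd5 and mt-Nd6 share 14 bases on opposite strands, which libraries that keep strand can tell apart.
mt-Atp8 and mt-Atp6: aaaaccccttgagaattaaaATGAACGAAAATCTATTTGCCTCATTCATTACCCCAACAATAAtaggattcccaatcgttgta
mt-Nd4l and mt-Nd4: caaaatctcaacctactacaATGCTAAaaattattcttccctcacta
mt-Nd5 and mt-Nd6: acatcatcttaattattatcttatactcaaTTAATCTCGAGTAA

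Depth recovered from the spacing of the low CPM values (counts scaled to 1000000 reads per library) lay between 15863265 and 21309296 reads per library, and between 11006 and 12818 genes had at least 1 CPM. Placebo library 5 had the fewest genes at that level and stood apart in the scaling described below. All 6 ventricular muscle markers were present, and their summed level was 7503 to 26626 CPM in placebo and 22584 to 41071 CPM in osimertinib. Macrophage markers summed to 60.87 to 123.4 CPM and 144.5 to 208.2 CPM, groups that did not overlap, and brown fat markers to 5.913 to 11.52 CPM and 13.99 to 19.96 CPM. Per 1000000 nuclear reads, those read outside the mitochondrial genes and copies, the ranges overlapped for ventricular muscle (35348 to 64873 and 56640 to 75841), macrophages (242.8 to 358 and 284.7 to 426) and brown fat (17.3 to 34.78 and 27.25 to 40.84). Atrial markers reached 5227 CPM in osimertinib against 1430 CPM at most in placebo, with the defining atrial gene Bmp10 at 0. Per 1000000 nuclear reads they were at 1131 to 3939 in placebo and 1340 to 10696 in osimertinib. The endothelial range was lower in osimertinib (1986 to 3820 and 1737 to 2549). Ranges also overlapped for fibroblasts (754.7 to 1739 and 989.2 to 2234), smooth muscle and pericytes (966.5 to 1405 and 1073 to 1517), red blood cells (493.9 to 1124 and 170.8 to 1213) and skeletal muscle (1843 to 8006 and 3294 to 8167). The part these differences play in the values below was not tested, and in whole tissue fewer cells of a type and less RNA per cell cannot be told apart.

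Mitochondrial genes took 31.75% to 63.35% of all reads. In placebo libraries 1 to 5 the share was 48.0%, 38.13%, 40.55%, 44.07% and 63.35%, and in osimertinib libraries 1 to 5 it was 45.17%, 35.92%, 31.75%, 38.64% and 33.7%. The means were 46.8% ± 9.97 (SD, n = 5) and 37.0% ± 5.22 (SD, n = 5), a difference of -9.78 percentage points. The groups overlapped, and without placebo library 5, the highest of all 10, the difference was -5.65 points. The 7 copies took a further 15.7% ± 2.42 of reads in placebo and 13.4% ± 0.963 in osimertinib (SD, n = 5 each). Gene and copy together held 83.0% of placebo library 5 and 45.05% to 63.7% of the other 9 libraries. Counted per read of any other gene, there were 1.755, 1.048, 1.241, 1.463 and 4.883 mitochondrial reads in placebo and 1.508, 0.9476, 0.8198, 1.046 and 0.8876 in osimertinib. On that scale too, placebo library 5 was far above the rest and the others overlapped. Counting error was small beside these differences, with 95% Wilson intervals of at most 0.024 points to either side, which cover counting error only.

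**Figure D1:**
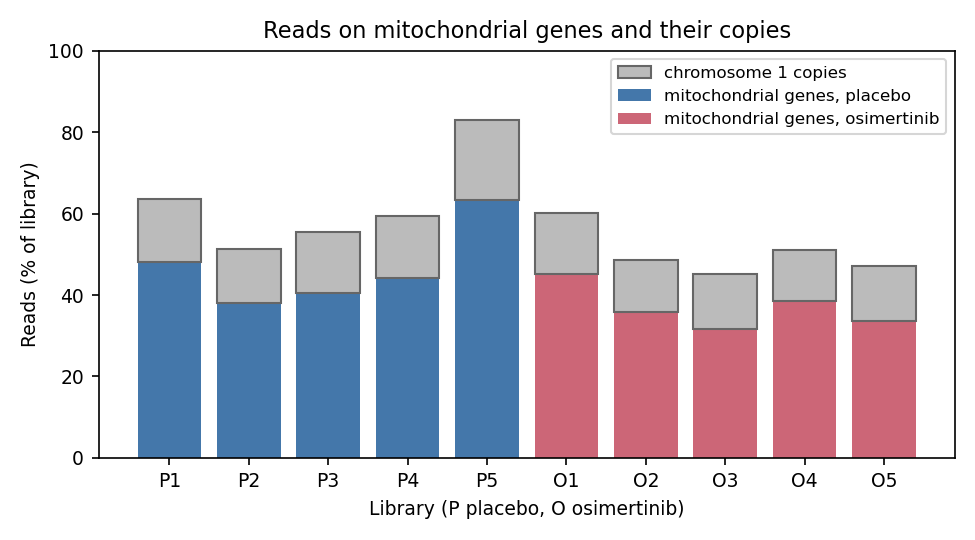
Reads of the 37 mitochondrial genes and of their 7 chromosome 1 copies, as a percentage of all reads, in each of the 10 libraries. Placebo library 5 has the highest share, 63.35% on mitochondrial genes alone, placebo library 1 has 48.0%, and the other 3 placebo libraries lie within the osimertinib range of 31.75% to 45.17%.

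The split between gene and copy differed from pair to pair far more than between the groups. The copy took most of the pair's reads for mt-Co2, with 89.0% ± 3.66 on Gm28661 in placebo and 87.8% ± 1.52 in osimertinib, and for mt-Nd4l, with 90.6% ± 1.35 and 91.0% ± 1.43 on Gm10222. For mt-Atp6 the share on Gm10925 was 85.5% ± 2.38 and 84.5% ± 1.19, for mt-Co3 on Gm28437 74.7% ± 5.89 and 74.6% ± 2.80, and for mt-Nd3 on Gm28438 61.1% ± 2.41 and 65.1% ± 4.02 (SD, n = 5 each throughout). The 2 genes with partial copies kept nearly all their reads, since Gm29216 held 5.40% ± 2.07 and 6.59% ± 1.898 of the mt-Co1 pair and Gm28439 0.393% ± 0.103 and 0.369% ± 0.123 of the mt-Nd4 pair. The identical copy of mt-Nd4 covers 876 of the gene's 1378 bases, and Gm28661 covers nearly all of mt-Co2.

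**Figure D2:**
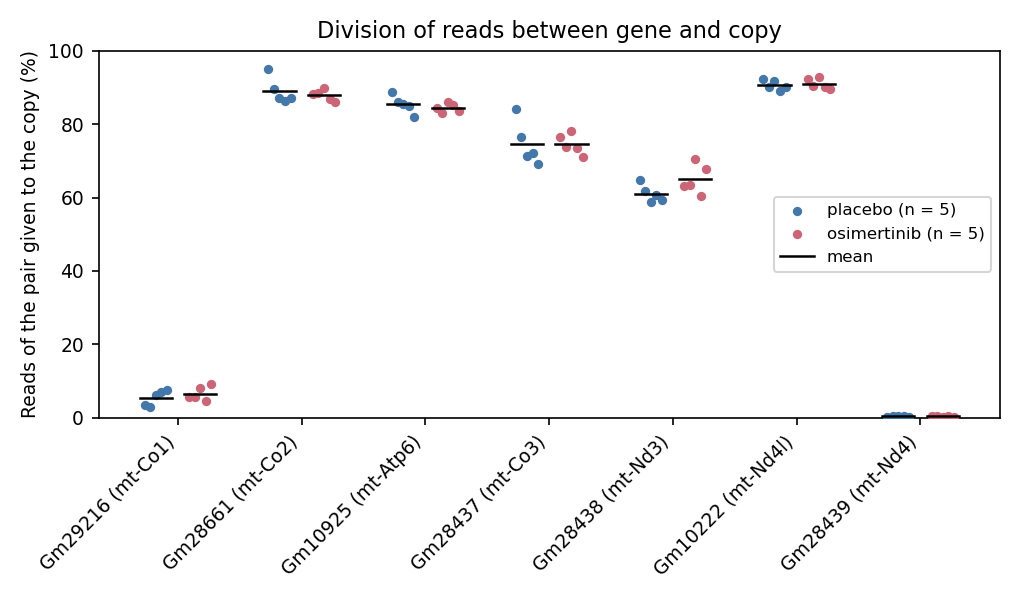
Percentage of each pair's reads given to the chromosome 1 copy, by library and group, for the 7 pairs. The values cluster by pair, from below 1% for Gm28439 to about 90% for Gm10222 and Gm28661, and placebo library 1 stands highest for Gm28661 (95.16%) and Gm28437 (84.02%).

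mt-Co2, a core subunit of cytochrome c oxidase, shows what the split does to a single gene. Read alone it stood at 3013, 5433, 7937, 8375 and 10938 CPM in placebo and 7155, 5929, 5198, 6782 and 7494 CPM in osimertinib. Summed with Gm28661 the values were 62278, 52049, 61101, 60985 and 84368 CPM and 60125, 51396, 51023, 51295 and 53198 CPM. Placebo library 1 was the lowest library for the gene alone and the second highest for the sum, and the groups overlapped in both. Shares of the mitochondrial total and levels per kilobase in the next paragraphs are therefore those of gene and copy together.

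Per kilobase of transcript and averaged over the 10 libraries, complex IV messenger RNAs stood highest, at 113900 CPM per kb for mt-Co1, 85938 for mt-Co2 and 79120 for mt-Co3. Next came mt-Atp6 of ATP synthase at 56529 CPM per kb, mt-Cytb of complex III at 48207, and the complex I subunits mt-Nd1 at 42834, mt-Nd4 at 37052 and mt-Nd2 at 29166. Lower still were mt-Nd5 at 15377 and mt-Nd3 at 12876 CPM per kb. The short mt-Atp8 (204 bases) stood at 3885 and mt-Nd4l (297 bases) at 3859. Both overlap a neighbour on the same strand, so a low value here need not be that of a separate RNA. The ribosomal RNAs mt-Rnr2 and mt-Rnr1 stood at 7287 and 6113 CPM per kb in these poly(A)-selected libraries. mt-Nd6, the one messenger RNA read from the minus strand, was lowest at 83.85 CPM per kb. Its 441 to 1041 reads per library make it the least precisely counted messenger RNA of the set. The 22 transfer RNAs were listed at 0 in every library.

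Complex IV messenger RNAs made up 52.1% ± 0.759 of the mitochondrial total in placebo and 53.3% ± 1.33 in osimertinib (SD, n = 5 each; copies counted in both gene and total). mt-Co1 (chrM:5328-6872), whose product is the catalytic subunit, was 31.15% ± 1.24 and 31.05% ± 0.72. mt-Co2, which accepts electrons from cytochrome c, was 10.28% ± 0.460 and 10.65% ± 0.654, and mt-Co3 was 10.66% ± 0.949 and 11.62% ± 0.975. For each single gene the difference was smaller than or about equal to the spread between libraries. The difference of the complex IV sum was larger than the placebo SD and smaller than the osimertinib SD. In CPM, mt-Co1 with its copy stood at 208989, 156394, 170648, 176012 and 265023 in placebo and 186273, 154986, 137820, 161891 and 141711 in osimertinib. Every osimertinib library was below the placebo mean, as were placebo libraries 2, 3 and 4, and the groups overlapped.

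ATP synthase is represented by 2 genes that share bases, and the reads given to each differed by a wide margin. Because of that overlap, the gap need not be one between separate RNAs. mt-Atp6, part of the proton channel, made up 6.774% ± 0.580 of the mitochondrial total in placebo and 6.974% ± 0.403 in osimertinib. mt-Atp8 (chrM:7766-7969), a small subunit of the same membrane sector and without an annotated copy of its own among the 7, stood at 1308, 651.8, 811.7, 790 and 1412 CPM in placebo and 811.6, 612.6, 386.4, 630 and 511.7 CPM in osimertinib. The 43 bases that mt-Atp8 shares with mt-Atp6 lie in the stretch that Gm10925 copies without a mismatch. Reads from those bases may therefore be missing from the mt-Atp8 values. As a share of the mitochondrial total mt-Atp8 was 0.157% ± 0.0319 and 0.116% ± 0.0192. All 5 osimertinib libraries lay below the placebo mean, as did placebo libraries 2, 3 and 4. Placebo libraries 2 and 4 lay within the osimertinib range.

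The only complex III gene of this genome is mt-Cytb, cytochrome b. It lies on the plus strand (chrM:14145-15288) and stood at 64345, 52191, 52419, 57616 and 83842 CPM in placebo and 61678, 45918, 42153, 47490 and 43832 CPM in osimertinib, or 9.913% ± 0.315 and 9.533% ± 0.409 of the mitochondrial total. In CPM, osimertinib library 1 alone of its group was within the placebo range. By share it was the highest of all 10 libraries.

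Complex I has 7 of the 13 messenger RNAs, all for the membrane arm that pumps protons, and together they made up 28.0% ± 1.52 of the mitochondrial total in placebo and 26.8% ± 1.42 in osimertinib. mt-Nd4 (9.088% ± 0.290 and 8.939% ± 0.290), mt-Nd1 (7.278% ± 0.460 and 7.148% ± 0.323), mt-Nd5 (5.029% ± 0.664 and 4.724% ± 0.835) and mt-Nd3 (0.799% ± 0.128 and 0.813% ± 0.0845) differed by less than their spread. In CPM, mt-Nd3 with its copy stood at 4570, 4485, 5247, 4910 and 5200 in placebo and 4792, 3929, 3983, 3493 and 4198 in osimertinib. Osimertinib library 1 alone of its group was within that placebo range. mt-Nd2 (chrM:3914-4951) stood at 5.777%, 5.406%, 5.205%, 5.413% and 6.273% in placebo and 5.368%, 4.864%, 4.67%, 5.155% and 4.659% in osimertinib. Osimertinib library 1 was the only one of its group inside the placebo range of mt-Nd2. mt-Nd4l (chrM:9877-10173) was 0.221% ± 0.0325 and 0.176% ± 0.0342, with all 5 osimertinib libraries and placebo libraries 2, 3 and 4 below the placebo mean. mt-Nd6 (chrM:13552-14070) lay on the other side, at 0.00655% ± 0.00234 and 0.00941% ± 0.0019. All 5 osimertinib libraries and placebo libraries 3 and 4 were above its placebo mean. In CPM, mt-Nd6 stood at 26.25, 27.8, 45.72, 57.7 and 43.27 in placebo and 47.44, 37.95, 46.51, 44.79 and 57.71 in osimertinib, so that placebo libraries 1 and 2 were lowest and the others were mixed.

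The ribosomal RNAs, which form the core of the mitochondrial ribosome, varied more between libraries than between groups. Together they were 2.522%, 3.198%, 3.394%, 4.481% and 1.525% of the mitochondrial total in placebo and 2.532%, 3.251%, 2.462%, 4.432% and 3.907% in osimertinib. The lowest was placebo library 5, which had the most mitochondrial reads.

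**Figure D3:**
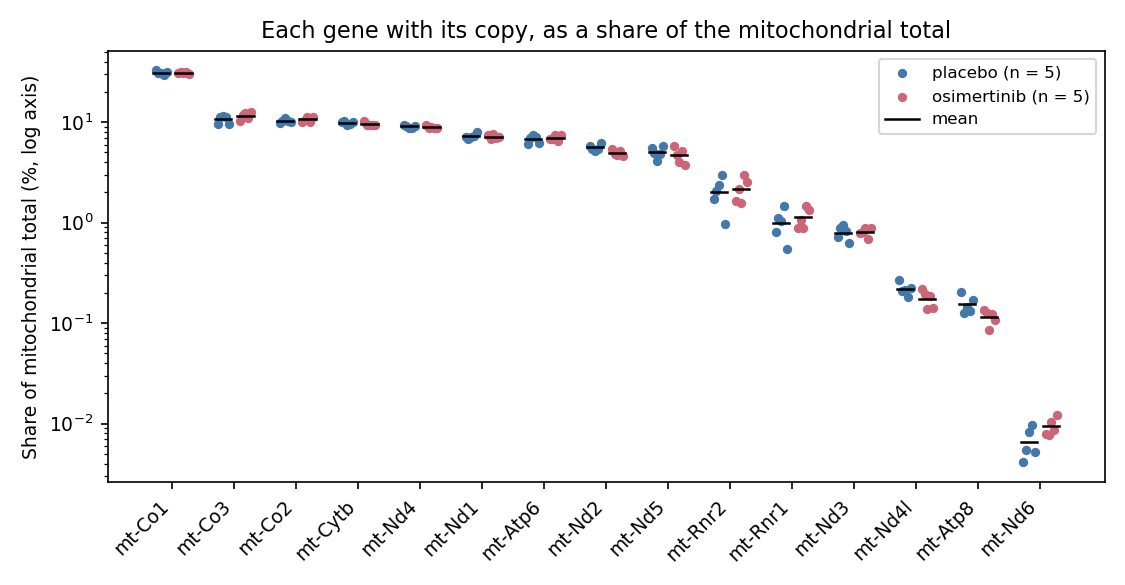
Share of the mitochondrial total, in percent on a log axis, of each of the 15 mitochondrial RNAs read above 0, copies added to their genes, with 1 point per library and the group means. The groups overlap for all 15, and the order of the genes differs little between libraries.

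Each gene was then tested with limma on log2(CPM + 0.5). The test was two-sided, and p-values were adjusted by Benjamini-Hochberg over the 12350 genes that had at least 1 CPM in at least 5 libraries. All 15 mitochondrial RNAs read above 0 and the 7 copies passed that filter, and the transfer RNAs did not. Genes and copies were tested as separate features, and a value is that of the gene alone unless its copy is named. Differences are log2 of osimertinib minus placebo with their standard errors (SE). With mitochondrial reads this large a part of each library, the scale matters, so 3 were used. The first is the deposited CPM. The second rescales libraries by the median of their gene ratios to an average library, which weighs all tested genes alike. The third divides by the library's mitochondrial total, copies included, and so asks only about the balance among mitochondrial RNAs. The median over all genes tested was 0.27, 0.01 and 0.54 on the 3 scales.

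None of the 22 mitochondrial genes and copies passed an adjusted p of 0.05 on any of the 3 scales. In the deposited CPM the background was 6.62% of all genes called higher and 0.13% called lower, after rescaling 10.4% and 10.5%, and relative to the mitochondrial total 6.35% and 0.0162%. At an unadjusted p under 0.05 there were 2 in the deposited CPM (mt-Atp8 and mt-Nd4l), 4 after rescaling (these, mt-Nd3 and the copy Gm10222) and 0 relative to the mitochondrial total. With copies added to their genes these counts were 1 of 15 (mt-Atp8), 2 of 15 (mt-Atp8 and mt-Nd4l) and 0, again with none past the adjusted threshold. Voom on the estimated reads called 0 of the 22 as well, with 1 at an unadjusted p under 0.05. Quantile normalization called 4 lower, with mt-Atp8 at -1.35 (adjusted p 0.0407), mt-Nd3 at -1.08 (0.0172), Gm28438 at -0.89 (0.0223) and Gm10222 at -1.30 (0.0395) by limma. Of all 12350 genes tested, that fit called 1430 lower and 1224 higher. Leaving out any 1 library called 0 of the 22 on each of the 3 scales. Relative to the mitochondrial total, the error of each gene was set by all genes tested and not by its own spread. The absence of calls on that scale therefore cannot show that the balance among mitochondrial RNAs was unchanged. In the deposited CPM most of the error was likewise set by all genes tested. The absence of calls there cannot show that levels were unchanged either.

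The values pointed below 0 for 12 of the 13 messenger RNAs in the deposited CPM, with a median of -0.32 and a range of -0.73 to 0.27. After rescaling all 13 were below 0, with a median of -0.61 and a range of -1.01 to -0.01. Without placebo library 5 the medians were -0.21 and -0.25. Relative to the mitochondrial total the median was -0.02, with or without that library, and the range -0.43 to 0.57.

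mt-Atp8 had the lowest value on each scale, at -0.73 ± 0.33 (SE; adjusted p 0.171) in the deposited CPM, -1.01 ± 0.42 (0.0942) after rescaling and -0.43 ± 0.40 (0.472) relative to the mitochondrial total, by limma. mt-Nd4l was next, at -0.70 ± 0.32 (0.185), -0.99 ± 0.39 (0.0828) and -0.40 ± 0.46 (0.550) for the gene alone. With Gm10222, which held most reads of the pair, mt-Nd4l was at -0.64 (0.240), -0.92 (0.104) and -0.34 (0.551). mt-Nd3 alone was at -0.43 ± 0.31 (0.457), -0.71 ± 0.32 (0.121) and -0.13 ± 0.36 (0.817) by limma. With Gm28438 it was at -0.26 (0.677), -0.55 (0.252) and 0.03 (0.946). mt-Co1, the most abundant, was at -0.32 ± 0.27 (0.540), -0.61 ± 1.02 (0.692) and -0.02. On the second scale the error was larger than the value. It draws on the intensity trend over all genes tested as well as on the spread of mt-Co1 itself. mt-Co2 alone was at -0.02 (adjusted p 0.982) and, with its copy, at -0.25 in the deposited CPM. Relative to the mitochondrial total mt-Co2 was at 0.28 alone and 0.05 with its copy, and at -0.01 alone without placebo library 1, the library that gave the copy most. mt-Nd6 was the only messenger RNA above 0 in the deposited CPM (0.27 ± 0.32, adjusted p 0.675), though below 0 under quantile normalization (-0.05) and with mitochondrial reads left out of the totals (-0.21). It stood at -0.01 after rescaling and had the highest value relative to the mitochondrial total (0.57 ± 0.46, adjusted p 0.410). The ribosomal RNAs were at -0.07 for mt-Rnr1 and -0.14 for mt-Rnr2 in the deposited CPM and at 0.22 and 0.16 relative to the mitochondrial total.

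**Figure D4:**
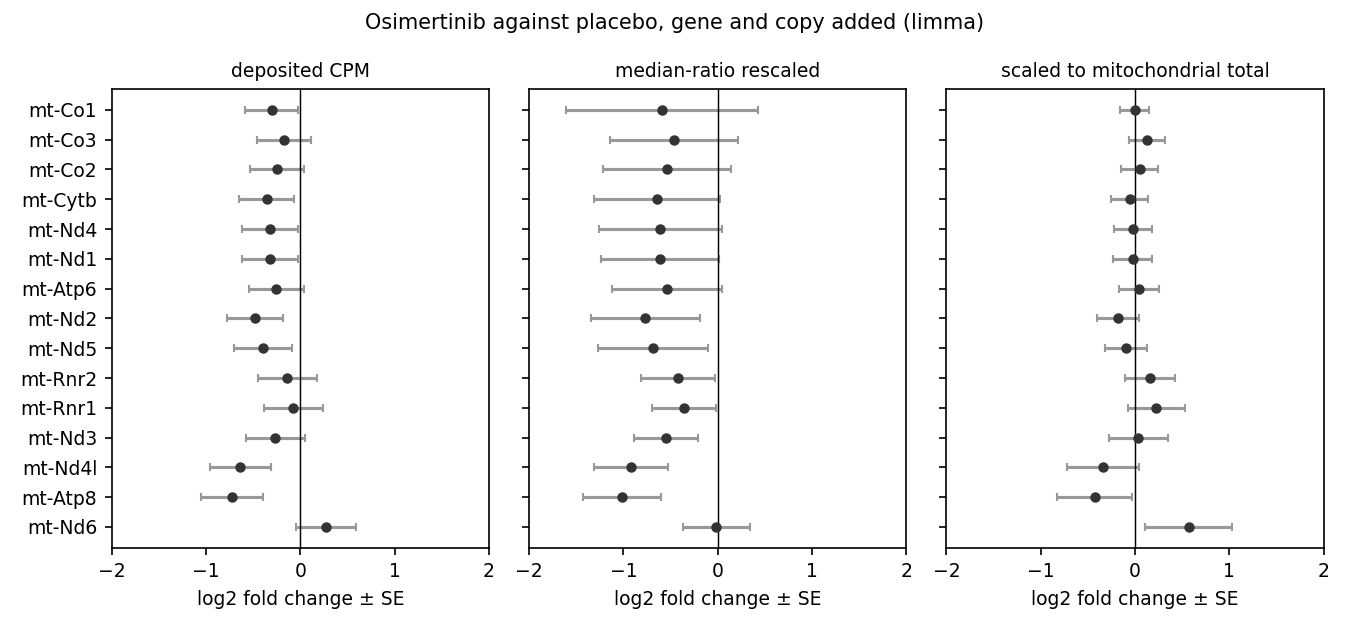
log2 difference, osimertinib minus placebo, with its standard error, of the 15 mitochondrial RNAs, copies added to their genes, in the deposited CPM, after median-ratio rescaling and relative to the mitochondrial total. Most values lie below 0 on the first 2 scales and around 0 on the third, and none passed an adjusted p of 0.05.

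Respiratory complexes join mitochondrial and nuclear gene products, so mitochondrial messenger RNAs of complexes III and IV and ATP synthase, without their copies, were each set against a nuclear subunit of the same complex, a ratio that needs no scale between libraries. The nuclear genes were chosen with their results in these data known, and Uqcrc2 and Atp5a1 had the highest differences of their lists in the deposited CPM, so the ratios are a description and carry no test. For complex III, mt-Cytb over Uqcrc2 (a core protein) was 1018, 490.2, 350, 433.2 and 2345 in placebo and 382.4, 185.3, 97.77, 239.1 and 106.1 in osimertinib, a log2 difference of -2.0.

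Placebo libraries 1 and 5 held the highest ratios and osimertinib libraries 3 and 5 the lowest, while the groups overlapped through osimertinib library 1 and, for complex IV, also library 4. For ATP synthase, mt-Atp6 alone over Atp5a1 (the alpha subunit of the catalytic head) was 14.33, 8.91, 8.021, 8.304 and 40.92 against 8.273, 3.794, 2.241, 4.29 and 2.741, a difference of -1.74, or -1.85 with the copy. For complex IV, mt-Co1 over Cox4i1 (a structural subunit) was 577.8, 221.1, 147.2, 171.4 and 1216 against 208.8, 124.1, 90.25, 153.5 and 89.26, a difference of -1.39. In each ratio all 5 osimertinib libraries lay below the placebo mean. So did placebo libraries 2, 3 and 4, and for ATP synthase also placebo library 1, the mean being raised by placebo library 5. With 1 library left out the differences ran from -2.27 to -1.56 for complex III, -2.02 to -1.33 for ATP synthase and -1.68 to -0.92 for complex IV.

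**Figure D5:**
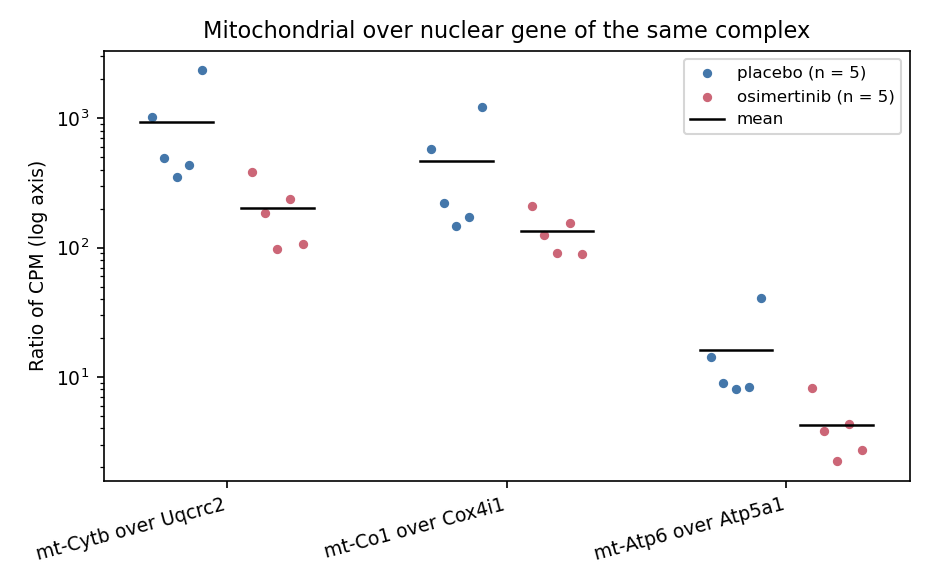
Ratio of a mitochondrial messenger RNA to a nuclear subunit of the same complex, on a log axis, with 1 point per library and a line at each group's arithmetic mean, for complexes III and IV and ATP synthase. Placebo libraries 1 and 5 stand highest in all 3 ratios. Every osimertinib library lies below the placebo mean, and so do placebo libraries 2, 3 and 4.

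These 3 nuclear subunits rose in the deposited CPM by limma, Uqcrc2 by 1.63 (adjusted p 0.00363), Atp5a1 by 1.59 (0.00378) and Cox4i1 by 1.07 (0.0465), the last of which was not called with placebo library 1, 2 or 5 or osimertinib library 2, 3 or 5 left out. All of these but Cox4i1 (0.78, adjusted p 0.0935) rose after rescaling too, though Uqcrc2 was not called without placebo library 2 or osimertinib library 3, nor Atp5a1 if any 1 of placebo libraries 1 and 2 and osimertinib libraries 3 and 5 was left out. Of the nuclear subunits tested, the deposited CPM called higher 19 of 36 for complex I, 5 of 9 for complex III, 4 of 14 for complex IV and 8 of 15 for ATP synthase, beside 0 of the 13 mitochondrial messenger RNAs. The share of all genes called higher in that fit was 6.62%. Without placebo library 5 the counts were 6, 2, 0 and 4, beside 4.59% of all genes higher and 1.93% lower. After rescaling they were 9, 5, 1 and 5, beside 10.4% of all genes. Without that library the rescaled counts were 2, 2, 0 and 3, beside 8.2% of all genes higher and 9.53% lower. The counts of complex IV were below the share of all genes in each of these fits but the first, and so was that of complex I in the last.

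Mitochondrial RNA is made, cut, tailed, read and degraded by nuclear-encoded proteins, and of 97 such genes tested the deposited CPM called 14 higher and 0 lower, with a median of 0.40, beside 6.62% and 0.13% of all genes. After rescaling 18 were higher and 3 lower, with a median of 0.14, beside 10.4% and 10.5%. Without placebo library 5 the calls were 4 higher and 0 lower in the deposited CPM, and 10 higher and 3 lower after rescaling. The higher calls were then near the share of all genes, which was 4.59% and 8.2%. The shift of all genes, a median of 0.27 in the deposited CPM, stands beside these values. Ventricular muscle markers reached 41071 CPM in osimertinib and 26626 CPM in placebo, as given above, and their part was not tested. With a pseudocount of 0.1, Tefm (adjusted p 0.0599), Endog (0.0614), Ptcd2 (0.052), Yars2 (0.0544) and the subunit Cox4i1 (0.0595) were not called in the deposited CPM, nor was Tefm with no intensity trend (0.0571). Voom did not call these 5 either, nor did the fit with mitochondrial reads left out of the totals. After rescaling, 15 of the genes named below were called, and each lost its call without osimertinib library 3. Iars2 lost it only there. Tfam, Tfb2m, Fars2, C1qbp, Gfm1, Lrpprc, Trmt10c, Tufm, Hsd17b10, Ptcd2 and Tefm lost it also without placebo library 1 or 2 or osimertinib library 5, and the last 8 of these also without placebo library 5. Lrpprc, Trmt10c, Tufm, Hsd17b10 and Ptcd2 lost it without osimertinib library 2 and Tefm without placebo library 4, while Polg lost it with placebo library 1 or 3 or osimertinib library 1, 2 or 5 left out. Mterf1b lost it also without placebo library 1 or osimertinib library 5, and Hars2 without either of these, placebo library 2 or osimertinib library 2. With no intensity trend, Lrpprc (0.0522), Tufm (0.0509) and Ptcd2 (0.0542) were not called after rescaling.

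Of 7 transcription genes, 1 was called higher in the deposited CPM, where 6.62% of all genes were, the elongation factor Tefm (0.92, adjusted p 0.0498 by limma, not called with placebo library 1, 4 or 5 or osimertinib library 2, 3 or 5 left out). The RNA polymerase Polrmt was at 0.10 there and -0.17 after rescaling. Tfam, which packages the genome and starts transcription, was at 0.84 (adjusted p 0.0796) and rose after rescaling (0.57, 0.0248), as did the initiation factor Tfb2m (0.73, 0.135, then 0.46, 0.0291). With Tefm (0.67, 0.0368) these made 3 of the 7 called higher after rescaling, and 1 was called lower, beside 10.4% and 10.5% of all genes. Mterf1b, of the termination factor family, was lower after rescaling (-0.72, adjusted p 0.0253), and is named because it was the only transcription gene called lower, a choice made after its values were seen. In the deposited CPM Mterf1b was at -0.53 (adjusted p 0.307 by limma), and at -0.68 and -0.30 with pseudocounts of 0.1 and 2.

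Of 16 genes of DNA replication and upkeep, the deposited CPM called 1 higher, near the 6.62% of all genes. It was the nuclease Endog (1.02, adjusted p 0.048 by limma), which lost its call with placebo library 1, 2 or 5 or osimertinib library 2, 3 or 5 left out. The DNA polymerase Polg was at -0.06 there and was called lower after rescaling (-0.34, adjusted p 0.0353). It was the only call of this list after rescaling, beside 10.4% of all genes higher and 10.5% lower. The helicase Twnk was at 0.68 (0.177) and 0.42 (0.0956), and the single-strand binding protein Ssbp1 at 0.27 and 0.00.

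Of 36 genes of RNA processing, tailing and modification, 3 were called higher in the deposited CPM (6.62% of all genes) and 7 after rescaling (10.4% of all genes). Lrpprc, which holds mitochondrial messenger RNAs in a stable, tailed form, rose by 1.23 ± 0.34 (SE; adjusted p 0.019 by limma) and by 0.95 (0.0436) after rescaling. Its partner Slirp was at 0.38 and 0.12, not called. Hsd17b10, a subunit of the ribonuclease that cuts the 5′ ends of transfer RNAs, rose by 1.22 (0.0187) and 0.94 (0.0402), and Ptcd2 by 1.00 (0.0422) and 0.72 (0.0454). Trmt10c, of the same ribonuclease, was at 0.84 (0.0808) and rose after rescaling (0.60, 0.0339). Elac2, which cuts the 3′ ends, was at 0.07 and -0.20, and the poly(A) polymerase Mtpap at 0.00 and -0.27 (0.068), neither called on these 2 scales. With mitochondrial reads left out of the totals both were called lower by limma, Elac2 at -0.40 (adjusted p 0.0315) and Mtpap at -0.47 (0.0352). That fit called 1722 of 12350 genes lower. Mtpap was also called lower after rescaling with a filter of a mean of 5 CPM (-0.27, 0.0471). Without placebo library 5 or osimertinib library 3 or 5, Lrpprc, Hsd17b10 and Ptcd2 were not called in the deposited CPM, nor were Hsd17b10 and Ptcd2 without placebo library 1 or Ptcd2 without osimertinib library 2. Without placebo library 5 the list had 0 calls in the deposited CPM and 3 after rescaling, the latter at the share of all genes (8.2%).

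None of 4 decay genes was called by limma on any of the 3 scales, and none had an unadjusted p under 0.05. The exonuclease Pnpt1 was at 0.29 in the deposited CPM and 0.02 after rescaling, and the helicase Supv3l1 at 0.37 and 0.10.

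Of 14 translation factors, 5 were called higher in the deposited CPM and 6 after rescaling, against 6.62% and 10.4% of all genes. The elongation factors Tufm (1.24, adjusted p 0.0192 by limma) and Gfm1 (1.23, 0.0153), and C1qbp (1.29, 0.0126), a matrix protein needed for mitochondrial translation, rose, and rose after rescaling too (0.96, 0.043 for Tufm, 0.95, 0.0291 for Gfm1 and 1.01, 0.0308 for C1qbp). C1qbp kept its call in the deposited CPM except without osimertinib library 3, and Gfm1 except without osimertinib library 3 or 5. Tufm lost it with placebo library 1 or 5 or osimertinib library 3 or 5 left out. Without placebo library 5 the list had 2 calls in the deposited CPM and 3 after rescaling, against 4.59% and 8.2% of all genes.

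Of 20 aminoacyl-tRNA synthetases, which charge the mitochondrial transfer RNAs with amino acids, 4 were called higher in the deposited CPM and 2 after rescaling, the latter near the 10.4% of all genes. Fars2 rose by 1.32 (adjusted p 0.00824 by limma), a call kept without each of the 10 libraries, and by 1.05 (0.0286) after rescaling. Iars2 rose by 1.05 (0.0306) and 0.77 (0.017). Yars2 rose in the deposited CPM (1.02, 0.0407) and was at 0.79 (0.0675) after rescaling. Hars2 was lower after rescaling (-0.41, adjusted p 0.03), named after its values were seen because it was the only synthetase called lower. Iars2 lost its call in the deposited CPM with placebo library 1 or osimertinib library 2, 3 or 5 left out, and Yars2 also without placebo library 5, without which the list had 2 higher calls on either scale, beside 4.59% and 8.2% of all genes.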

How the data were processed

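The deposited values are CPM, scaled by the authors to a total of 1000000 in each of the 10 libraries. RNA was purified with a column kit, and tailed RNA was captured on oligo(dT) beads with 5 ug of total RNA as input, per the labels' protocols. Per the design text, strand was kept, the nf-core/rnaseq pipeline ran STAR on GRCm38 and then RSEM, and the authors tested with limma and voom. For STAR and RSEM the version is not given in the sources used here. Other names stand in the submitters' processing notes, cutadapt 1.9, HISAT2 2.0.4, StringTie 1.3.4d, DESeq2 and the human build hg38. The table's identifiers are mouse ones, and 45143 of 45706 (98.8%) matched GENCODE M21, which gave positions and transcript sequences. How reads were divided between a mitochondrial gene and its identical copy is not given there.

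The spacing of low values gave each library's depth. Values under 200 reads were whole to a tolerance of 0.01 read in 90.6% to 93.2% of cases and multiples of 0.01 read in 100%, so count tests were not run. All 45 pairs of libraries differed by more than sampling noise, with a chi-square of at least 22.71 per degree of freedom. Copies were aligned to their genes with Biopython 1.88.

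Groups came from the sample titles. The 12350 genes reaching 1 CPM in at least 5 libraries were tested with limma 3.58.1 in R 4.3.3, with an intensity trend, on log2(CPM + 0.5), which understates changes of low genes. The prior had 72.9 degrees of freedom in the deposited CPM, 4.45 after rescaling and was infinite relative to the mitochondrial total, where the SE of a gene takes nothing from its own spread. The larger the prior, the more an SE rests on the trend over all genes and the less on the gene's own spread. Median-ratio factors were 0.4545 for placebo library 5 and 0.9257 to 1.344 for the others. The fits were run on simulated data in which no mitochondrial gene or copy was changed. No difference in mitochondrial share between libraries was built in, so that run does not bear on the members.

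The members and lists were chosen with earlier results of these data known. Named genes are all mitochondrial messenger and ribosomal RNAs, the 7 copies, 15 nuclear genes fixed by name, up to 3 called genes of lowest p in each nuclear list in the deposited CPM, and the nuclear subunits of the ratios, of which 1, with its ratio, is not reported here. A test planned for the ratios is left out, because their nuclear genes were chosen with results known. Alternatives were pseudocounts of 0.1 and 2, filters of none and of a mean of 5 CPM, copies added to their genes, no trend, the replicate number as a block, quantile normalization, totals without mitochondrial reads, voom on estimated reads, mitochondrial totals without copies or of messenger RNA alone, and each library left out. Copies added without placebo library 1 or 5, and list counts without placebo library 5, were chosen after seeing the data.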

Additional observations from a re-analysis of the deposited data

Results flagged for a closer look

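Osimertinib library 1 stood far above the other 4 libraries of its group in 6 values, with a gap to the nearest that exceeds Dixon's 95% critical value for 5 samples. These were mt-Nd1 at 44514 CPM (nearest library 35333), mt-Nd4 at 56390 CPM (44900), mt-Cytb at 61678 CPM (47490), the mt-Cytb share of the mitochondrial total with copies added at 10.3% (9.44%), Gm28661 at 52969 CPM (45825) and Gm10925 at 34215 CPM (29093). Chance flags about 1 in 20 groups, and the values of 1 library are not independent of each other.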

How the results depend on the processing

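The number of genes called of all tested was 833 in the deposited CPM, 2574 after rescaling and 786 relative to the mitochondrial total. With no filter these fell to 0 (smallest adjusted p 0.0707 by limma, 3269 at an unadjusted p under 0.05), 1227 and 0 (smallest adjusted p 0.109, 3763), over 21622 genes. The deposited CPM gave 2654 calls (1224 higher and 1430 lower, against 817 and 16) under quantile normalization, 2392 (670 and 1722) with mitochondrial reads left out of the totals, and 598 with voom. The median of all genes was then -0.02, -0.18 and 0.30. Relative to the mitochondrial total with copies added there were 98 calls without placebo library 1 and 1489 without placebo library 5. Leaving out 1 library gave 307 to 1126 calls in the deposited CPM, 521 to 2800 after rescaling and 61 to 2636 relative to the mitochondrial total. No mitochondrial gene or copy was called in any of these fits except the 4 under quantile normalization. The difference in mitochondrial share lay between -12.0 and -5.65 points with 1 library left out, and was -12.1 with copies added. The replicate number as a block gave 1320, 2949 and 847 calls. Deviations of same-numbered samples correlated at 0.429, 0.251, 0.466, -0.334 and -0.175, 3 of the 5 numbers matching best with their own, so the numbers were not taken as pairs. Pairing within replicate numbers cannot alter the mean differences of the log2 ratios. They were -2.0 for mt-Cytb over Uqcrc2, -1.39 for mt-Co1 over Cox4i1 and -1.74 for mt-Atp6 over Atp5a1. These ratios carry no test here, since their nuclear genes were chosen with results known. With 1 library left out these ran from -2.27 to -1.56, -1.68 to -0.92 and -2.02 to -1.33. Signs turned, in the deposited CPM, under quantile normalization for mt-Nd5 (0.04), mt-Nd6 (-0.05), Gm28661 (0.03), Gm10925 (0.10), Gm28437 (0.12), Polrmt (-0.20), Ssbp1 (-0.03), Mtpap (-0.30), Elac2 (-0.23) and Pnpt1 (0.00). They turned with mitochondrial reads out of the totals for mt-Nd6 (-0.21), Gm29216 (-0.45), Polrmt (-0.37), Ssbp1 (-0.20), Mtpap (-0.47), Slirp (-0.07), Elac2 (-0.40), Pnpt1 (-0.17) and Supv3l1 (-0.10), and for Mtpap with a pseudocount of 2 (-0.01). After rescaling they turned for Ssbp1 with no filter (0.00), and with copies added and placebo library 5 left out for mt-Nd6 (0.28), Ssbp1 (0.03) and Pnpt1 (-0.03). Relative to the mitochondrial total they turned for mt-Nd3 with its copy (0.03), for mt-Nd1, mt-Nd4 and mt-Co1 with totals without copies (0.00 each), for mt-Co1 with copies added without placebo library 1 (0.01) or 5 (0.00), and in the latter also for mt-Nd1 (0.01) and mt-Rnr2 (-0.08). With 1 library left out, ranges that crossed 0 in the deposited CPM were those of mt-Co2 (-0.30 to 0.17), mt-Co3 (-0.32 to 0.01), mt-Atp6 (-0.26 to 0.01), mt-Rnr1 (-0.18 to 0.07), mt-Rnr2 (-0.27 to 0.02), Gm29216 (-0.23 to 0.30), Polg (-0.31 to 0.04), Polrmt (-0.19 to 0.27), Mtpap (-0.26 to 0.17), Hars2 (-0.31 to 0.04) and Elac2 (-0.18 to 0.21). After rescaling they were mt-Co2 (-0.64 to 0.13), mt-Nd6 (-0.27 to 0.28), Gm29216 (-0.66 to 0.26), Ssbp1 (-0.05 to 0.03), Pnpt1 (-0.07 to 0.15) and Supv3l1 (-0.02 to 0.17), and relative to the mitochondrial total mt-Co1 (-0.05 to 0.00), mt-Co2 (-0.01 to 0.39), mt-Co3 (-0.04 to 0.24), mt-Nd1 (-0.05 to 0.01), mt-Rnr2 (-0.08 to 0.33), Gm28661 (0.00 to 0.06) and Gm10925 (-0.01 to 0.06). The cause of these changes was not tested. The block ended the rescaled calls of Polg (adjusted p 0.0506), Trmt10c (0.0502) and Hars2 (0.0513).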
